A study of Homo sapiens with 22 samples.

Results

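The RUNX transcription factors and the ETO family of corepressors were described in THP-1, a human monocytic leukaemia line, with and without knockdown of the RNA-binding protein QKI5. The 7 genes were RUNX1, RUNX2, RUNX3, CBFB, CBFA2T2, CBFA2T3 and RUNX1T1, out of 20037 protein-coding genes in the RefSeq gene table. They were chosen by gene family, and the family was chosen with peak values of these data in view, among them the CLIP peaks of CBFA2T3 and RUNX1, so the numbers of peaks given for them are descriptions with no test. For the chromatin lists, all peaks within 1 kb of either end of a gene or inside its span were taken. For the CLIP lists, all peaks that the list itself assigns to the gene symbol were taken. This gave 20 H3K4me3, 48 Pol II and 49 QKI5 CLIP peaks in control cells, and 19, 46 and 1 in knockdown cells.

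All cells carried a lentivirus, with the sh-control sequence in the control group and the sh-QKI5 sequence in the knockdown group. The design text calls the control untreated, and the sample labels were followed. The 22 samples formed 10 groups. In either condition there were 2 samples each for H3K4me3, for Pol II, for QKI5 CLIP and for the CLIP input, and the ChIP inputs numbered 2 in control and 4 in knockdown. The labels name no hairpin sequence or clone for either virus. ChIP-seq finds where a protein or histone mark sits on DNA, and CLIP-seq finds the RNA crosslinked to a protein. Trimethylation of histone H3 at lysine 4 (H3K4me3) marks promoters, and Pol II is the polymerase that transcribes protein-coding genes.

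Each of the 6 deposited lists was made from both replicates of its assay and condition, so no spread between replicates could be measured and differences between conditions were not tested. Reads were not analysed here and depth is unknown, so neither the amount of RNA behind a CLIP peak nor the level of QKI5 itself could be checked. On chromosomes 1 to 22, X and Y, the H3K4me3 lists held 21953 peaks in control and 21358 in knockdown, and the Pol II lists 33370 and 35094. The CLIP lists held 7300 and 649. The narrowest peaks of the ChIP lists, 0.501 kb wide, were also the most common. Peak positions are given on GRCh38.p5, 1-based. Among markers fixed for cell types, H3K4me3 lay at a gene end in both conditions in 7 of 10 monocytic, 0 of 4 T cell, 2 of 4 B cell (CD79A and PAX5) and 0 of 4 erythroid genes, beside 66.6% of protein-coding genes. Pol II did so in 7 of 10, 0 of 4, 0 of 4 and 0 of 4, beside 57.6%. The monocytic shares were thus near those of all genes. The monocytic genes without H3K4me3 there were FCGR1A, CSF1R and MPO.

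RUNX proteins bind DNA through the Runt domain, and CBFB binds no DNA itself but strengthens that binding. RUNX1 is needed for definitive blood stem cells, RUNX2 for bone, and RUNX3 for T cell and sensory neuron development. Each RUNX gene is transcribed from a distal and a proximal promoter. CBFA2T2 (MTGR1), CBFA2T3 (MTG16, ETO2) and RUNX1T1 (ETO) bring corepressor complexes with histone deacetylases to DNA-bound factors. In acute myeloid leukaemia, RUNX1 is fused to RUNX1T1, CBFB to MYH11, and CBFA2T3 to RUNX1 or to GLIS2. QKI5 is the nuclear form of Quaking, known for its part in splicing.

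RefSeq start sites allowed the promoters of 5 of the genes to be set beside the peaks. The 250 bases before 5 of the 7 starts are shown because they differ most in base composition, in RUNX sites and in whether the start lay under a peak. Sequences are from RefSeq on GRCh38.p14, 5′ to 3′, and capitals mark the RUNX site TGTGGT, read on either strand (ACCACA on the other).
RUNX3 distal start, chr1:24965011-24965260, minus strand: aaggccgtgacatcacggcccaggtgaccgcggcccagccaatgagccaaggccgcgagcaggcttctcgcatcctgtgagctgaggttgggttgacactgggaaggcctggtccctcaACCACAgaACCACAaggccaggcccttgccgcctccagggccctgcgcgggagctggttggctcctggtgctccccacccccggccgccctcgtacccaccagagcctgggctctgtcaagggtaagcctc
RUNX2 distal start, chr6:45328080-45328329, plus strand: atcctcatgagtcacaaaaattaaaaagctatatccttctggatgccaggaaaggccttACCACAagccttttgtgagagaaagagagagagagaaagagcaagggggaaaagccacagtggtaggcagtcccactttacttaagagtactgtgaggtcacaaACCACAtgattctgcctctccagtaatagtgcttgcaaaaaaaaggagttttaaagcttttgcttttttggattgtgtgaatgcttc
RUNX2 proximal start, chr6:45422025-45422274, plus strand: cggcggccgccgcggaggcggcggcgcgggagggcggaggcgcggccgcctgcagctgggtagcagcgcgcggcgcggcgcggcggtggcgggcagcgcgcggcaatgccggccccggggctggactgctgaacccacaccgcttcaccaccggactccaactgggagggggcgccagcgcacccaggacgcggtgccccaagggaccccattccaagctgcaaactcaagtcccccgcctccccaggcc
RUNX1 proximal start, chr21:34888700-34888949, minus strand: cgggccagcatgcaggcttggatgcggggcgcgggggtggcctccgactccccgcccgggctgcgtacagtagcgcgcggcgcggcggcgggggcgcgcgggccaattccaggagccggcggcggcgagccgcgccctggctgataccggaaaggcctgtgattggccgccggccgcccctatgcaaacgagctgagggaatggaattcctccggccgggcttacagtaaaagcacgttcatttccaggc
CBFA2T3 internal start, chr16:88941351-88941600, minus strand: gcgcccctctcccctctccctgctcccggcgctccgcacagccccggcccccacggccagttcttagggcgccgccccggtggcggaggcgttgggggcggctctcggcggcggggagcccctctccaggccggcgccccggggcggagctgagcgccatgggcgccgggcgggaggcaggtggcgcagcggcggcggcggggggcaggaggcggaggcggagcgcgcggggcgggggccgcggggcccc

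The distal starts of RUNX3 and RUNX2 each had 2 RUNX sites in this window, and the other 5 starts had 0. Over 35116 RefSeq windows of the same length, 11% held at least 1 TGTGGT on either strand. The distal starts of RUNX3 and RUNX2 also shared a run of 18 bases with a pair of such sites, which 2 windows of the table held when the 50 bases after each start were included.
RUNX3 and RUNX2 shared run: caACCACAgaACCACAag
In RUNX3 it began at position -133 relative to the start (chr1:24965126-24965143, minus strand). In RUNX2 it began 15 bases after the start (chr6:45328344-45328361, plus strand), outside the stretch printed above. A match is a sequence of letters and was not tested for binding.

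The windows ranged from CpG-poor to CpG-rich. The RUNX2 distal window had a GC content of 41.6% and 0 CpG, and that of CBFA2T2, which lies 72.2 kb inside the gene, had 42.8% and 2. RUNX3 had 67.6% and 13 CpG at its distal start, against medians of 58% and 11 over all windows. The 4 richest were CBFA2T3 with 84.4% and 36 CpG, the RUNX3 proximal start with 78.4% and 33, the RUNX2 proximal start with 78% and 34, and the RUNX1 proximal start with 71.2% and 32. These 4 held 1 to 5 copies of the Sp1 box GGGCGG, present in 42.6% of all windows. The RUNX3 distal window held 1 as well, and the RUNX2 distal and CBFA2T2 windows held 0. The ETS core GGAA, present in 92.7% of windows, was in 6 of the 7 with up to 6 copies at RUNX1. The GATA site GATAA (20.4%) was in 0 of 7, and the E-box CAGCTG (14%) in 2 of 7, RUNX2 proximal and CBFA2T2. All motifs were searched on both strands, and copies of different motifs could overlap.

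Promoter marks lay on each RefSeq start of a RUNX gene except the RUNX2 distal start. Of the 7 starts, 4 lay under H3K4me3 and under Pol II in both conditions: both starts of RUNX3 and the proximal starts of RUNX1 and RUNX2. Over 22175 RefSeq starts, 64.7% lay under H3K4me3 in control and 64.9% in knockdown, and 53.6% and 55.8% lay under Pol II, so 4 of 7 is near the background. The RUNX2 distal start, with 2 RUNX sites, was 47948 bp (control) and 47812 bp (knockdown) from the nearest H3K4me3 peak. The CBFA2T3 internal start, the window with most CpG, had its nearest at 4636 and 4384 bp. For CBFA2T2 these distances were 69414 and 70182 bp.

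Most members had both marks at a gene end in both conditions, as do most genes. H3K4me3 lay within 1 kb of an end in both conditions for 6 of 7 genes, all but RUNX2, beside 66.6% of protein-coding genes. It was there in control alone for 0 of 7 (0.554% of genes), and in knockdown alone for 0 of 7 (0.779%). Pol II lay there in both conditions for 5 of 7, beside 57.6%. RUNX1T1 had it in knockdown alone, a state of 3.97% of genes, and 0 had it in control alone (1.91%). RUNX2 had neither mark at its ends, and all of its peaks lay inside the gene.

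**Figure D1:**
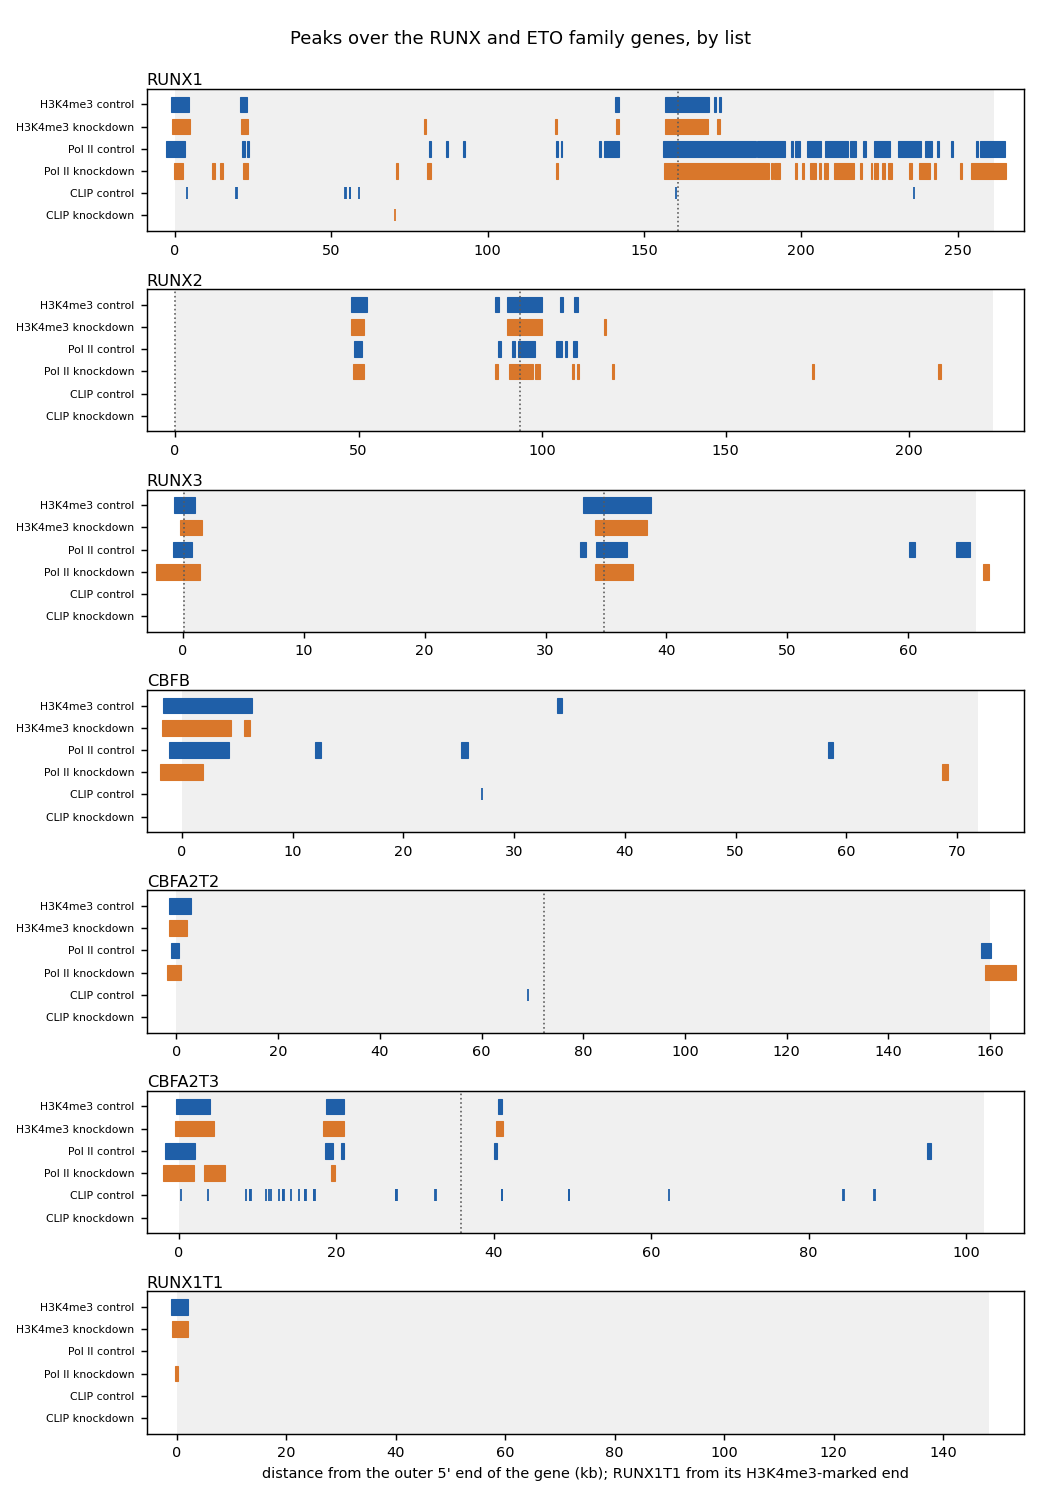
Peaks over the 7 genes. Each panel is a gene drawn from its outer 5′ end (x axis, kb; grey, gene span; dotted lines, RefSeq starts used; RUNX1T1 from its H3K4me3-marked end), with rows for the 4 ChIP lists and the 2 CLIP lists, blue for control and orange for knockdown; boxes are drawn with a thin outline and CLIP peaks as ticks of fixed width. RUNX1 is filled with Pol II peaks after its proximal start at 160.6 kb, and CLIP ticks crowd the first 20 kb of CBFA2T3 in control.

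As in the whole lists, wide peaks over the members were matched between the conditions and the narrowest ones mostly were not. All 11 H3K4me3 peaks wider than 2000 bp in each condition overlapped a peak of the other, beside 12947 of 12962 in the control list and 12878 of 12882 in the knockdown list. For Pol II, 14 of 15 in control and 13 of 14 in knockdown did, beside 97.8% and 96.7% of the lists. Of Pol II peaks at the lists' narrowest width of 0.501 kb, 0 of 12 in control and 3 of 12 in knockdown did, beside 25.5% and 21.3% of all peaks of that width. Over all sizes, 15 of 20 control H3K4me3 peaks were matched (75%, exact 95% binomial interval 50.9 to 91.3) and 16 of 19 in knockdown (84.2%, 60.4 to 96.6). The whole lists gave 88% and 90.8%, inside those intervals. For Pol II, 27 of 48 control peaks (56.2%, 41.2 to 70.5) and 28 of 46 knockdown peaks (60.9%, 45.4 to 74.9) were matched, beside 63.3% and 59.4% of the lists. The intervals cover counting only, and neighbouring peaks of a gene are not independent. When each peak had to be overlapped over at least 50% of its length, 12 control and 12 knockdown Pol II peaks were matched. The shares of the whole lists under that rule are not given, so the lower numbers are not read as a trait of these genes. H3K4me3 and Pol II met on 17 of 20 and 14 of 19 H3K4me3 peaks, and on 18 of 48 and 15 of 46 Pol II peaks. No share of the whole lists stands beside these last counts, so nothing is read from them.

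RUNX1, the blood stem cell factor (chromosome 21, minus strand, 261.5 kb), had an H3K4me3 domain on each of its promoters in both conditions. The domain on the proximal start was 13911 bp wide in control (chr21:34878796-34892706) and 13647 bp in knockdown (chr21:34879020-34892666). That on the distal 5′ end was 5852 bp (chr21:35044687-35050538) and 5902 bp (chr21:35044355-35050256). The widths of these domains differed little between the lists. A further pair lay 21 kb into the gene, between the promoters, 2029 bp wide in control and 2283 bp wide in knockdown, with Pol II peaks on it in both. An enhancer of blood stem cells is known in that intron, and whether this peak is that element was not analysed here. Peaks of 765 and 819 bp, at 121.4 and 79.6 kb, were listed in knockdown only, 18513 and 56580 bp from the nearest control peak.

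Pol II covered 89.9 kb of RUNX1 in control, 34.4% of the gene, and 72.5 kb (27.7%) in knockdown. Of 6269 genes of at least 50 kb, RUNX1 ranked 3 in covered length in both lists, after MBNL1 (114.4 and 91.1 kb), a splicing regulator, and ATP8B4 (113.8 and 90.9 kb). By share of the gene covered, RUNX1 ranked 30 in control and 46 in knockdown. The median share of those genes was 0.815% in control and 0.957% in knockdown. RUNX1 thus stood near the top in both lists with less cover in knockdown. Less cover in knockdown was usual among such genes: of the 21 with at least 50 kb under control Pol II peaks, RUNX1 among them, 16 had less in knockdown, with a median ratio of 0.819 beside 0.807 for RUNX1. Of the 16 with at least 50 kb in knockdown, 5 had less in control. Over the 4337 genes covered in both lists the median ratio was 1.09.

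**Figure D2:**
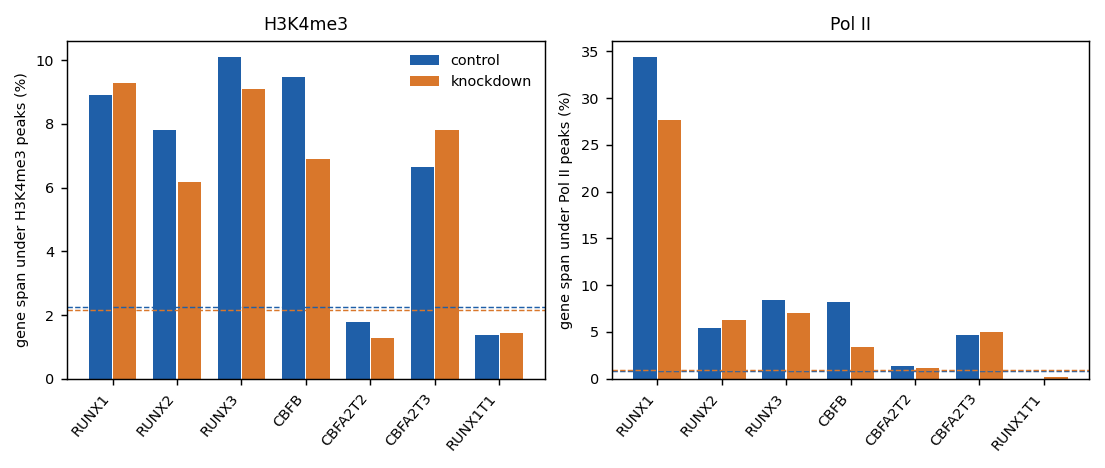
Share of each gene's span under peaks (bars, y axis, %) for H3K4me3 on the left and Pol II on the right, blue for control and orange for knockdown; each bar is from a pooled list and has no error bar, and dashed lines are medians over 6269 genes of at least 50 kb. RUNX1 has 34.4% of its span under Pol II in control and 27.7% in knockdown, and CBFB 8.25% and 3.39%.

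Most of this Pol II cover lay after the proximal start. The 100.9 kb downstream of it (38.6% of the gene) were covered to 71.4% in control and 59.4% in knockdown. The 160.6 kb between the distal end and the proximal start were covered to 11.1% and 7.85%. The widest Pol II peak began at the proximal promoter and spanned 29475 bp in control (chr21:34863774-34893248) and 33403 bp in knockdown (chr21:34859476-34892878). It was wider in knockdown, although the downstream part as a whole was less covered. RUNX1-AS1 has an end within 1 kb of this peak and of the proximal H3K4me3 domain in both lists. The same holds for a Pol II peak further downstream in each list, so RUNX1 and RUNX1-AS1 cannot be told apart at these peaks. The Pol II peak on the distal end measured 6148 bp in control against 3068 bp in knockdown. That on the 3′ end was 7982 and 11053 bp wide and lay within 1 kb of an end of LINC01426, so the 2 genes cannot be told apart there. A peak of 4646 bp at 137.2 kb (chr21:34907452-34912097) was listed in control only, 14573 bp from the nearest knockdown peak. Peaks of 769 bp at 12 kb and 782 bp at 14.6 kb were listed in knockdown only, 8576 and 6025 bp from the nearest control peak. The former lay within 1 kb of an end of RUNX1-IT1. In all, 16 of 25 control and 18 of 26 knockdown Pol II peaks of RUNX1 were matched.

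RUNX2, the bone factor (chromosome 6, plus strand, 222.8 kb), had marks on its proximal promoter. H3K4me3 spanned 9690 bp there in control (chr6:45418691-45428380) and 9641 bp in knockdown (chr6:45418680-45428320). Pol II spanned 4741 bp (chr6:45421666-45426406) and 6576 bp (chr6:45419363-45425938). LOC124901324 has an end within 1 kb of each of these peaks, so the 2 genes cannot be told apart there. A second H3K4me3 pair, of 4436 and 3620 bp at 47.9 kb, lay within 1 kb of an end of SUPT3H, the gene that overlaps RUNX2 here. Control alone listed H3K4me3 peaks of 1141, 873 and 1224 bp around the proximal domain, and knockdown alone listed 1 of the narrowest width. The gene was 7.8% covered by H3K4me3 in control and 6.18% in knockdown, and 5.38% and 6.3% by Pol II.

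RUNX3, the T cell and neuron factor (chromosome 1, minus strand, 65.6 kb), had H3K4me3 and Pol II on both of its RefSeq starts in both conditions. On the proximal start H3K4me3 was 5617 bp wide in control (chr1:24926428-24932044) and 4351 bp in knockdown (chr1:24926730-24931080). On the distal start it was 1771 bp (chr1:24964130-24965900) and 1873 bp (chr1:24963515-24965387). Pol II was 2606 and 3130 bp wide on the proximal start. It was 1537 and 3636 bp wide on the distal start, the end with the RUNX sites printed above. RUNX3-AS1 has an end within 1 kb of each of these peaks, and the strand of the signal is not given. At the 3′ end, a control peak of 1165 bp and a knockdown peak of the narrowest width lay 1081 bp apart.

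CBFB, the partner that binds no DNA (chromosome 16, plus strand, 71.9 kb), had marks at its 5′ end that were narrower in knockdown. H3K4me3 was 8023 bp wide in control (chr16:67027428-67035450) and 6288 bp in knockdown (chr16:67027326-67033613). A separate narrowest-width knockdown peak at 5.61 kb lay inside the stretch that the control peak covered. Pol II was 5435 bp wide (control) and 3932 bp wide (knockdown). With 3 further control peaks of at most 634 bp and 1 knockdown peak of the narrowest width inside the gene, Pol II covered 8.25% of it in control and 3.39% in knockdown, and its rank among the 6269 long genes by that share was 405 and 1251.

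Of the ETO family, CBFA2T3 (chromosome 16, minus strand, 102.3 kb) had the most chromatin peaks. H3K4me3 at its 5′ end was 4321 bp wide in control (chr16:88973201-88977521) and 4849 bp in knockdown (chr16:88972800-88977648). Peaks further in measured 2290 bp in control (18.7 kb) and 2690 bp in knockdown (18.3 kb). Another, at 40.5 kb, had the narrowest width in control, and at 40.2 kb measured 887 bp in knockdown. This pair lay within 1 kb of an end of LOC107984871. All 3 pairs overlapped, and each was wider in knockdown. Pol II at the 5′ end was 3891 bp wide (control) and 3963 bp wide (knockdown). A knockdown Pol II peak of 2720 bp at 3.16 kb (chr16:88971328-88974047) was 1055 bp from the nearest control peak, and 3 control peaks of the narrowest width had no match.

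CBFA2T2 (chromosome 20, plus strand, 159.9 kb) carried marks at its ends alone. H3K4me3 at the 5′ end was 4256 bp in control (chr20:33488672-33492927) and 3494 bp in knockdown (chr20:33488666-33492159). Pol II was 1612 and 2611 bp wide at the 5′ end and 1897 and 6030 bp at the 3′ end, where the knockdown peak ran past the end of the gene. RUNX1T1 (chromosome 8, 148.4 kb) had H3K4me3 at an end in both conditions, with widths of 3036 bp (control) and 3030 bp (knockdown). Pol II was not listed there in control, and a 635 bp peak was listed in knockdown. Its nearest control Pol II peak was 776909 bp away. It was close to the narrowest width, at which 21.3% of all knockdown Pol II peaks were matched.

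In control cells QKI5 CLIP peaks were listed on 4 of the 7 genes, beside 13.9% of protein-coding genes, and in knockdown cells on 1 of 7, beside 1.84%. These are the counts that helped to choose the genes, so nothing is read from them. CBFA2T3 had 37 control peaks, RUNX1 10, CBFB 1 and CBFA2T2 1. RUNX2, RUNX3 and RUNX1T1 had 0. RUNX1 had 1 knockdown peak and the other genes had 0. A gene that makes less RNA and a gene whose RNA is less often bound cannot be told apart in such a list, and the control list held 7300 peaks against 649. A gene missing from the list may hold reads below the threshold, since every listed peak had passed one: the lowest -log10 p was 7.04 in knockdown and about as low in control.

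**Figure D3:**
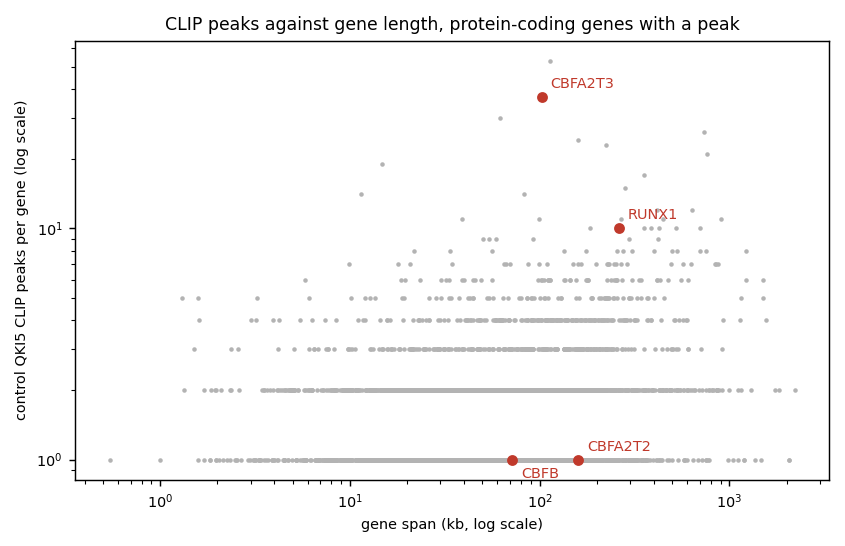
Control QKI5 CLIP peaks per gene (y axis, number, log scale) against gene span (x axis, kb, log scale) for the 2795 protein-coding genes with a control peak; red points are the 4 members with a peak. CBFA2T3, with 37 peaks on 102.3 kb, ranks 2 by number, and RUNX1 has 10 on 261.5 kb.

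CBFA2T3 ranked 2 of 2795 genes by number of control peaks, between AHNAK with 53 and PLEC with 30. Per length it had 36.2 peaks per 100 kb, which ranked 89 over all genes with a peak and 3 of 1625 among genes of at least 50 kb. The genes next above it per length were ATP5MG, EPPK1, PSMG4, TRMT2A and PLD6, from 36.4 to 37.5 peaks per 100 kb on spans of 5.34 to 21.9 kb. Next below were MPO, NOP56, PPAN, UBE2M and VASN, from 36.1 to 34.2. All of these are short genes with 1 to 8 peaks. RUNX1, with 10 peaks, ranked 20 by number, a count held by 7 genes with RUNX1 included. Per length it had 3.82 peaks per 100 kb, which ranked 1095 over all genes with a peak and 153 of 1625 among genes of at least 50 kb. Per length it stood between genes with 1 to 3 peaks such as UBOX5 (3.82) and FAM117A (3.81). CBFB had 1.39 and CBFA2T2 0.625.

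The CBFA2T3 peaks crowded the 5′ part of the gene. Of the 37, 22 lay in the first 20 kb and 27 upstream of the internal start, in 35% of the gene's length. With the gene cut into 3 parts of equal length from its 5′ end, the numbers were 27, 6 and 4. The control peaks of RUNX1 fell 8, 1 and 1 into such parts. Positions over the whole list are not given, so the crowding is not called particular to CBFA2T3. Adjoining CBFA2T3 peaks merged into 24 sites with 2137 bp in all. Peaks had 9 to 37 reads with a median of 14, beside a median of 9 over the control list. The sites with most reads were chr16:88949514-88949637 at 27.6 kb (3 peaks, up to 37 reads), chr16:88976771-88976920 at 0.287 kb (1 peak, 34 reads) and chr16:88959882-88960030 at 17.2 kb (3 peaks, up to 30 reads). The letters under these sites were not analysed here. Another control peak inside the span, at chr16:88938136-88938248 with 10 reads, is assigned by the list to RP11-830F9.7 and was not counted.

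Many reads did not mean a high enrichment. The log2 enrichments of the CBFA2T3 peaks ran from 3.49 to 6.25 with a median of 4.28, beside a list median of 5.92. Linear enrichment equalled the reads times 15.2 divided by a whole number, here called the divisor, within 0.001 for 98.9% of control peaks. This reading comes from the values alone, and what the divisor counts is not stated. It was 3 to 41 for CBFA2T3 with a median of 12, beside 2 over the list. Among the 26 genes with at least 10 control peaks the median of such medians was 4, and 5 genes, CBFA2T3 included, were at or above 12. The peak at 0.287 kb with 34 reads had the divisor 41 and a log2 enrichment of 3.65. The most enriched peak, at 11.1 kb (chr16:88966069-88966107), had 15 reads, the divisor 3 and 6.25. The -log10 p stood at 15.66 for 9 of the 37 peaks, a value that 205 peaks of the control list share, so it does not rank them.

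**Figure D4:**
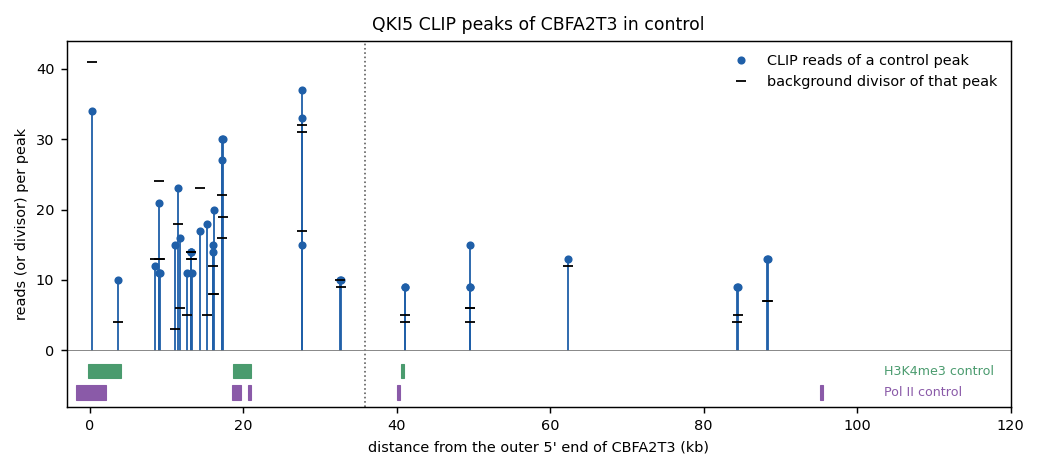
Control QKI5 CLIP peaks along CBFA2T3 (x axis, kb from the outer 5′ end; dotted line, internal start at 35.9 kb), with reads of each peak as blue stems and the divisor inferred from its enrichment as black dashes (y axis, number per peak); H3K4me3 and Pol II control peaks are drawn below. Reads reach 37 at 27.6 kb, and the divisor exceeds the reads at 0.287 kb, with 41 against 34. The legend calls the divisor a background divisor, but what it counts is not stated.

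RUNX1 had 10 control peaks at 7 sites, with 7 to 14 reads and log2 enrichments of 4.17 to 6.92. Upstream of the proximal start lay 9 of the 10, in 61.4% of the gene's length, at 3.96, 19.7 to 19.8, 54.5 to 58.9 and 160.1 kb. The site at 3.96 kb was chr21:35045192-35045346 with 13 reads, inside the distal H3K4me3 domain. That at 160.1 kb, chr21:34889076-34889166 with 8 reads, ended 377 bp before the proximal start and lay under both marks. The last peak, with 7 reads at 236.2 kb (chr21:34813102-34813125), was under Pol II. Both of these had the divisor 1, and the other 8 had 4 to 11. The knockdown peak was chr21:34978894-34979016 at 70.3 kb, with 8 reads, 5.36 for the log2 enrichment and 8.62 for the -log10 p. It lay 11347 bp from the nearest control CLIP peak of RUNX1, and 368 bp from a narrowest-width Pol II peak listed in knockdown only. So the 1 knockdown peak of RUNX1 met none of its 10 control peaks. No share of the whole lists stands beside this, so it is not read as a trait of RUNX1.

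**Figure D5:**
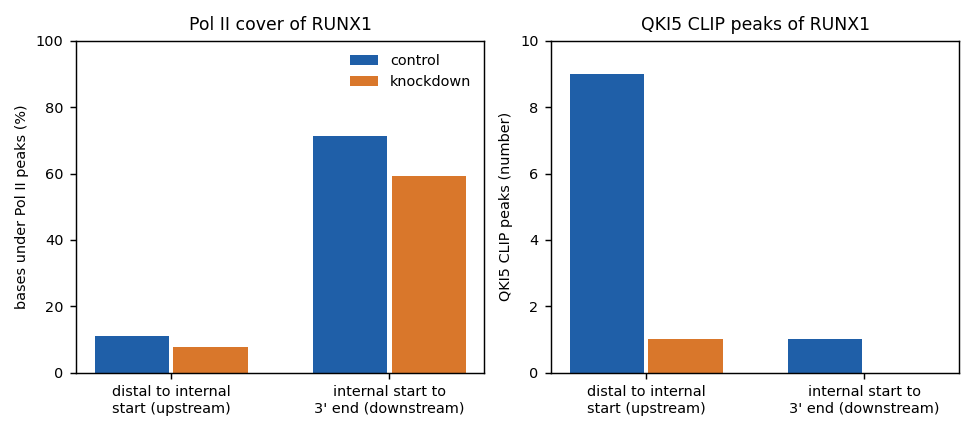
RUNX1 split at its proximal start: share of bases under Pol II peaks (left, y axis, %) and number of QKI5 CLIP peaks (right, y axis) for the 160.6 kb upstream and the 100.9 kb downstream, blue for control and orange for knockdown, from pooled lists with no error bars. Pol II cover was 11.1% and 71.4% in control, and 9 of 10 control CLIP peaks lay upstream.

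CBFB had 1 control CLIP peak, at chr16:67056199-67056260 and 27.1 kb into the gene, with 9 reads, 5.51 for the log2 enrichment and 8.61 for the -log10 p. CBFA2T2 had 1, at chr20:33559180-33559232 and 69.1 kb, with 7 reads, 6.73 for the former and 7.58 for the latter. The median of the control list was 9 reads, so the former had a usual number and the latter fewer. Neither lay on a chromatin peak. No member had control and knockdown CLIP peaks that overlapped, and only RUNX1 had peaks in both lists. The share of all CLIP peaks that overlap between conditions is not given, so nothing is read from this.

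Most CLIP peaks of the members lay off chromatin peaks, as did most of the whole list. In control, 5 of 49 were on H3K4me3 (10.2%), beside 13.1% of the 7300 control CLIP peaks on chromosomes. On Pol II, 3 of 49 were (6.12%), beside 13.2%. CBFA2T3 gave 37 of the 49 and adjoining peaks share a site, so these shares are descriptions. For CBFA2T3, 3 of 37 were on H3K4me3 and 1 on Pol II, and for RUNX1, 2 of 10 on each. Allowing a distance of 1 kb gave 6 of 49 on Pol II in control and 1 of 1 in knockdown, where 0 of 1 overlapped. The share of the whole list at that distance is not given.

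Genes that work with these families were read from fixed lists. H3K4me3 lay at a gene end in both conditions in all 15 corepressor genes, and Pol II in 14, all but TBL1XR1, beside 66.6% and 57.6% of protein-coding genes. Control CLIP peaks were on 8 of the 15 (24 peaks), beside 13.9% of genes, with 6 on TBL1X, a subunit of a histone deacetylase complex, and 4 each on SIN3B, a SIN3 scaffold, and RCOR1, which binds KDM1A. Knockdown had 1 peak, on TBL1X, beside 1.84% of genes.

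Of 15 haematopoietic factors that share sites or complexes with RUNX1 or ETO proteins, 13 had H3K4me3 at an end in both conditions (66.6% of protein-coding genes) and 12 had Pol II (57.6%). GATA1 and FLI1 had neither at an end, and ERG had Pol II there in knockdown alone, 932 bp wide. Peaks inside these genes are not given, so an internal promoter such as that of RUNX2 would be missed. GFI1, a zinc finger repressor, had the widest marks of the list: 15973 bp (control) and 14896 bp (knockdown) for H3K4me3, and 20947 and 30641 bp for Pol II. CLIP peaks were on 6 in control (12 peaks, 4 of them on TCF12) and on 0 in knockdown, beside 13.9% and 1.84% of genes. All 8 coactivators and modifying enzymes had H3K4me3 in both conditions, and 7 had Pol II in both. The same shares of all genes, 66.6% and 57.6%, stand beside these. HIPK2, a kinase, had Pol II of 1037 bp in control alone. CLIP peaks were on 5 of the 8 in control (13 peaks), with 7 on CDK6, which also had the 1 knockdown peak, beside 13.9% and 1.84% of genes.

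Of 8 myeloid genes known as RUNX1 targets, 4 had H3K4me3 and Pol II at an end in both conditions: CSF3R, ELANE, ITGAL and ITGAX. This was 4 of 8, beside 66.6% and 57.6% of protein-coding genes. CSF1R, the receptor of macrophage colony-stimulating factor, had Pol II of 755 bp in knockdown alone. CSF2 and IL3 had no peak there. MPO, the neutrophil peroxidase, had none either but 4 of the 5 control CLIP peaks of this list, the other being on ITGAL. With 2 of 8 genes, CLIP stood beside 13.9% of all genes, and no list was tested.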

How the data were processed

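H3K4me3 and Pol II ChIP peaks and QKI5 CLIP peaks of THP-1 cells were used as deposited, in 6 lists made from both replicates per the design text. HOMER and the build GRCh38.p5 are named in the submitters' processing notes, without their step; the aligner and the way peaks were called are not given in the sources used. Every ChIP peak has a deposited score of 1, so peaks were described by width. The CLIP lists have no header: the authors' columns were read as -log10 p, log2 enrichment and a read number, from their values.

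Gene spans and promoters came from RefSeq tables on GRCh38.p14, whose chromosome coordinates are those of GRCh38.p5, since patch releases leave them unchanged. Strand came from the CLIP rows or the promoter table, and for RUNX1T1 neither gave it. Exons and introns were not used here. Overlap meant at least 1 bp. Shares carry exact (Clopper-Pearson) 95% intervals. Python 3.11.15, scipy 1.17.1 and matplotlib 3.10.9 were used, and the overlap code was checked on simulated peaks.

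The members and lists were chosen with earlier results of these data known. All 7 members are named. Other genes come from the lists of corepressors, haematopoietic factors, coactivators, RUNX1 targets and cell type markers, with up to 4 examples each by widest or most peaks, plus the genes without a peak and the 5 genes on either side in CLIP peaks per 100 kb; markers without or against their class were named after their values were seen. A gene of these lists is not reported by name here. Other gene-end windows, peak widths, overlaps and CLIP thresholds were tried as alternatives.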

Additional observations from a re-analysis of the deposited data

How the results depend on the processing

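Of the values recomputed under other settings, 29 that were above 0 stayed within 1.5 times of the value given and 14 did not. A further 37 were 0 under both settings, where most of the settings could give nothing else. Gene-end counts stayed so with windows of 0.5 and 5 kb and without peaks of the narrowest width, and CLIP counts per gene did so when genes were taken by position. Within that limit, the control Pol II gene-end count was 6 with the 5 kb window in place of 5, beside a knockdown count of 6. The 2 counts are not of the same genes. The gene added in control was RUNX2, while the knockdown count holds RUNX1T1, whose nearest control Pol II peak was 776909 bp away. Requiring 50% of each peak to overlap matched 12 of 48 control and 12 of 46 knockdown Pol II peaks, in place of 27 and 28. A -log10 p of at least 10 left 18 CLIP peaks on CBFA2T3 (37 without it), 3 on RUNX1 in control (10), 0 on RUNX1 in knockdown (1), 0 on CBFB (1) and 0 on CBFA2T2 (1). At least 10 reads left 6 on RUNX1 in control, and 0 on RUNX1 in knockdown, on CBFB and on CBFA2T2. Merging adjoining peaks gave 24 CBFA2T3 sites. Within 1 kb, 6 control and 1 knockdown CLIP peaks of the members lay near Pol II, against 3 and 0 that overlapped. Each of these settings is stricter or wider by construction. Leaving out a replicate could not be run, and no paired analysis was possible because each list pools both replicates. Depth is unknown, and the CLIP peaks of the genes with 1 peak had 7 to 9 reads.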

Other observations

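Each CLIP peak also carries a running number that no source used here explains. It rose with the coordinate in 1994 of 1994 control genes with more than 1 peak and in 139 of 139 knockdown genes. The RUNX1 knockdown peak had the number 19. The control peaks of RUNX1 on either side of it had 95 and 161, which gives 153.5 at its place by interpolation, or 8.08 times the knockdown number. Over 110 knockdown peaks in 64 genes that lay between control peaks of the same gene, the median of this ratio was 2.72, and 85 were above 1.

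The proximal windows of RUNX1 and RUNX2, with the 50 bases after the start included, shared a run of 16 bases on the same strand. The RUNX1 and CBFA2T3 windows shared 13, and so did those of RUNX1 and RUNX2 in reverse orientation. These are the longest runs after the 18 bases of the distal RUNX2 and RUNX3 windows, between pairs of the 7 windows of the members. How many other windows hold them is not given, so they are not called particular to these genes. The 250 bases before the RUNX1 and RUNX2 proximal starts had 71.2% and 78% GC.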
